A study of Mus musculus with 12 samples.

Results

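The alpha-globin locus on mouse chromosome 11 held 24 of the 84243 accessible regions of the master peak-list. They were found by position and by gene name. A total of 23 peaks overlapped the 160 kb from 32.15 to 32.31 Mb of chromosome 11 (mm10), and 1 more peak, downstream of that window, carried the theta-globin gene Hbq1a as the gene that HOMER names for it. The genes considered were the embryonic zeta-globin gene Hba-x, the adult alpha-globin genes Hba-a1 and Hba-a2, the theta-globin genes Hbq1b and Hbq1a, and the flanking genes Nprl3, Mpg and Rhbdf1. The peaks are called P1 to P24 here, in the order in which they lie along the chromosome. Of the 23 peaks in the window, 19 carried 1 of these 8 genes as gene name, 3 carried Il9r and 1 carried Snrnp25.

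The accessibility data came from ATAC-seq of 12 samples, 2 replicates for each of 6 blood cell types. In this assay a transposase inserts sequencing adapters into DNA that is not packed away by nucleosomes. All mice were wild-type C57BL/6 adults of 8 to 12 weeks, with no mutation and no treatment in any group. The cell types were hematopoietic stem cells (HSCs), megakaryocyte progenitors (MkPs), erythroid progenitors (EPs), granulocyte/macrophages (GMs), B cells and T cells, each isolated by cell sorting. The labels give thymus as the source of the T cells and bone marrow as that of the other cell types. EPs were sorted as lineage-negative CD71+ cells with or without Ter119, a gate that spans several stages of red cell maturation. The deposited list pools the peaks of the 6 cell types, holds 0 columns of values per sample, and gives no cell type for a peak. Each peak below is thus a region that was open in 1 or more of the sorted populations. The authors had filtered the combined list to the most significant peaks. It holds fewer promoter peaks than they report for any single cell type. A region called as a peak in a cell type can therefore be absent from the list. The populations could not be checked against their markers, and replicate error is unknown for every value. No test between cell types was possible, and every count is given as a description beside the same count over the whole list or genome.

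Alpha-globin genes are among the most strongly transcribed genes of maturing red cells. Their expression depends on a group of erythroid enhancers that lie upstream of the genes, most of them inside introns of Nprl3, a housekeeping gene that encodes a subunit of the GATOR1 complex. GATA1, TAL1, NF-E2 and KLF1 are the erythroid factors known to bind such elements, and the enhancers R1 and R2 carry most of the activity. DNase I hypersensitive sites at the locus are named HS followed by their distance in kb upstream of the Hba-x transcription start site (TSS). RefSeq places these sites, and the fragments tested as enhancers, on GRCm38, the assembly also known as mm10, and states that the coordinates of the sites are approximate.

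The sequences of the enhancers are shown first. R2, the mouse counterpart of the major human alpha-globin enhancer, lies in intron 4 of Nprl3, and its core at chr11:32250975-32251251 was contained whole in P14. For R1, R3, Rm and R4, the central 200 bases of the peak on the enhancer are shown, at chr11:32245699-32245898 (P12), chr11:32256218-32256417 (P15), chr11:32265205-32265404 (P16) and chr11:32269060-32269259 (P18). All are plus strand sequences of GRCm38.p6 from RefSeq, written 5′ to 3′, and Nprl3 runs on the minus strand. Capitals mark exact matches, on either strand, to the GATA motif (AGATAA or TGATAA), to the NF-E2 core (TGANTCA), and in R1 to a TAL1:GATA composite (CTG, 8 bases, then a GATA motif).
R2: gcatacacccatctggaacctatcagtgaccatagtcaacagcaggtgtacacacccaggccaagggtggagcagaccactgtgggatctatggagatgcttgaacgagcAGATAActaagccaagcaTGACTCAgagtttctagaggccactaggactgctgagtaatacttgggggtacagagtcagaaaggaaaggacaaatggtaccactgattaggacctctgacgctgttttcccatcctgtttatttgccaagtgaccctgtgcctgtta
R1: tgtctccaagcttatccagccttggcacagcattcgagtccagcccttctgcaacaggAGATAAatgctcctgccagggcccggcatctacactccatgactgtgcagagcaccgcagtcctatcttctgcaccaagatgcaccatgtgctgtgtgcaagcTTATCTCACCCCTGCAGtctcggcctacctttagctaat
R3: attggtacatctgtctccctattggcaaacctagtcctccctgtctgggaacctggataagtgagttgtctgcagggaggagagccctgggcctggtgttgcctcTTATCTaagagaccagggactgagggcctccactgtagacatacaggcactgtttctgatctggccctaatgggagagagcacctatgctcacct
Rm: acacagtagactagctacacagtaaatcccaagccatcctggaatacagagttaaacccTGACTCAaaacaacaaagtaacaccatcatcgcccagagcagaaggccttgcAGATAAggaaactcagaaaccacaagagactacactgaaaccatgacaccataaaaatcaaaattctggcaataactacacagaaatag
R4: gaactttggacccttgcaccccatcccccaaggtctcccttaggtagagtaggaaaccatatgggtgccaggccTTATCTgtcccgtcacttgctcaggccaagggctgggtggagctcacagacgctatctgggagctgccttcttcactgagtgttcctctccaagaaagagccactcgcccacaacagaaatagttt

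Each of the 5 enhancers had a peak on it. R1, R2, R3, Rm and R4 were overlapped by 6 peaks, with P11 and P12 both on the longest fragment annotated for R1. Every peak of the locus had the same width, 499 bp, so an overlap does not measure how far the open chromatin reached. Among the 1001 enhancer entries that RefSeq annotates outside the window, in whatever tissue they were tested, 28% overlapped a peak of the list. Each entry with its own coordinates was counted there, whereas several entries of the same enhancer were counted as 1 at the locus. P12 covered 499 bp of HS-31 and its centre lay 4 bp from the centre of the site, 30.8 kb upstream of the Hba-x TSS. P14, 25.6 kb upstream, covered 330 bp of the 436 bp of HS-26. P15, in intron 2 of Nprl3, covered 495 bp of the R3 fragment, and P16, in intron 1, contained the whole of the 323 bp Rm fragment. P18 lay outside Nprl3, 1453 bp upstream of its TSS, and contained the whole of the shorter R4 fragment. P11 shared only 106 bp with the end of the R1 fragment and overlapped neither HS-31 nor the shorter R1 fragments.

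**Figure D1:**
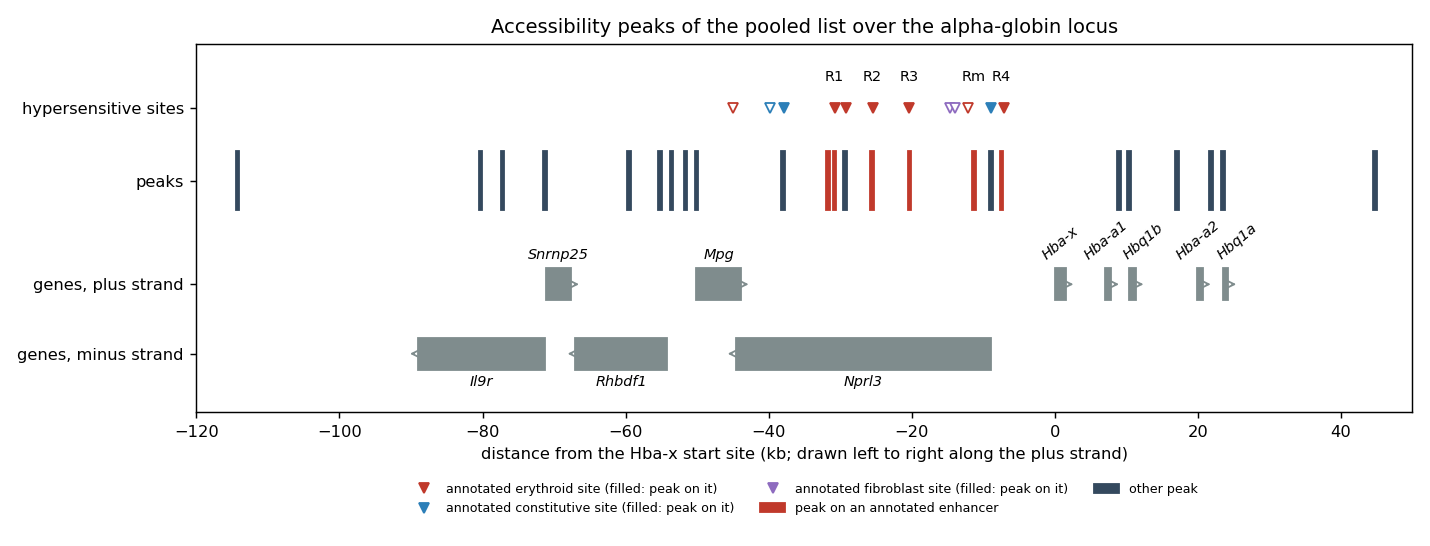
Peaks of the pooled list, genes and annotated DNase I hypersensitive sites over the locus, by distance in kb from the Hba-x TSS. Boxes in the peak row are the 24 peaks at their deposited width, 499 bp for each, red for the 6 on an annotated enhancer. Triangles are hypersensitive sites, filled where a peak lies on them. Peaks are dense over Nprl3 and there is none between P18, 7.44 kb upstream of Hba-x, and P19, 8.95 kb downstream of it.

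Of the 12 hypersensitive sites that RefSeq annotates at the locus, 7 had a peak on them, where 35.8% of 106 annotated sites outside the window did. By the tissue that RefSeq gives, the sites with a peak were 5 of 7 erythroid sites, 2 of 3 constitutive sites and 0 of 2 fibroblast sites. The erythroid sites with a peak were HS-31, HS-29, HS-26, HS-21 and HS-8. HS-45 had no peak within 4537 bp. HS-12 had no peak on its annotated coordinates, which are approximate. P16, the peak on Rm, began 263 bp from their end, so HS-12 may be counted here as lacking a peak only because of its placement. The constitutive sites HS-38 and HS-10 were covered by P10 and by P17, the latter at the Nprl3 promoter. HS-39 was 1284 bp from the nearest peak, and the fibroblast sites HS-15 and HS-14.5 were 2787 and 2087 bp away. The peaks were also named by distance alone, within 1 kb of the name, using only the names HS-31, HS-26, HS-21, HS-12 and HS-8. This gave the same name to P12, P14, P15 and P18, but also named P11 HS-31, P16 HS-12 and P17 HS-8.

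The beta-globin cluster on chromosome 7, which supplies the partner chains of hemoglobin, gave the same count, with 7 of 12 annotated hypersensitive sites under a peak. In its locus control region, the enhancer cluster of the beta-globin genes, 5 of 8 sites had a peak. For this cluster the paper shows signal by cell type. It reports most sites of the region and the adult beta-globin promoters as accessible in EPs. HS2 was also accessible in HSCs and MkPs, and HS5 was not accessible.

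An AGATAA match lay in the peak on every one of R1, R2, R3, Rm and R4, and P11 was the enhancer peak without one. Over the whole list, 24.1% of peaks held AGATAA. The match was 7 bp from the peak centre in P15, 13 bp in P16, 24 bp in P18 and 47 bp in P14. P12 held 2 matches, 40 and 63 bp from its centre. Outside the enhancers, AGATAA occurred in 2 of 18 locus peaks, P2 in Il9r and P5 in Rhbdf1, at 196 and 210 bp from the centre. When TGATAA was counted as well, 10 of the 24 locus peaks had a GATA match, against 37.1% of the list.

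The only TAL1:GATA composite was in R1, on the minus strand at chr11:32245860-32245876, and read CTGCAGGGGTGAGATAA, so it contains the second AGATAA of P12. Of all peaks, 2.26% held such a composite. The NF-E2 core was found in 3 of the 24 peaks, where 15.3% of the list had it, and each match read TGACTCA. Those in P14 and P16 lay 66 and 38 bp from the centre of an enhancer peak, and the third was 161 bp from the centre of P7, upstream of Rhbdf1. In R2 the AGATAA and the TGACTCA were 12 bases apart, and in Rm they were 45 bases apart in the opposite order. A KLF motif (CCNCNCCC) was present in 6 of the 24 peaks, against 49.6% of the list, and among the enhancers only in R3, where it read CCACACCC. The KLF matches in P6, P8 and P9 lay near the starts of Rhbdf1 and Mpg.

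**Figure D2:**
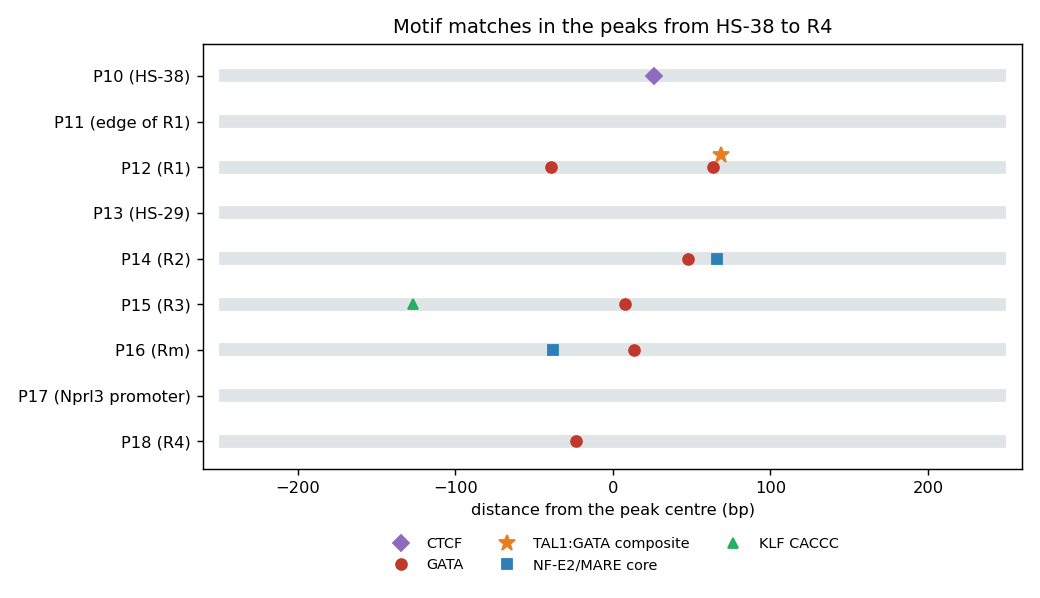
Motif matches in the 9 peaks from P10 to P18, by distance in bp from the peak centre. Grey bars are the 499 bp peaks and each symbol is 1 exact match. GATA matches lie within 63 bp of the centre in the peaks on R1, R2, R3, Rm and R4, and P11, P13 and P17 have no match.

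RefSeq also records 7 protein binding sites within the R2 core, from footprints and probes, and the matches fell on some of them. The AGATAA of P14, at chr11:32251085-32251090, lay inside the GATA1 footprint mFP-IIa, and the TGACTCA, at chr11:32251103-32251109, lay inside the AP1/NF-E2 footprint mFP-IIb. The other 5 recorded sites, 2 for GATA1, 1 for AP1/NF-E2 and 2 for KLF3, held no match to the exact motifs used here. The GATA1 site mFP-I reads aaccTATCagtg, with the 4 letters of GATA on the minus strand in capitals but without the full motif. All 7 sites were inside P14.

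The gene that HOMER named for the enhancer peaks was never a globin gene. Of the 7 peaks in Nprl3 introns, HOMER assigned 3 to Mpg (P10, P11 and P12) and 4 to Nprl3. For the 6 enhancer peaks, the nearest RefSeq Select TSS was that of a globin gene in 0 cases. The basal plus extension rule gives each gene a domain of 2 kb upstream and 1 kb downstream that extends to the next gene for up to 1 Mb. It linked 0 of the 6 enhancer peaks to a globin gene. Here the rule was run on RefSeq Select TSSs without curated regulatory domains, which the authors did include in their own target predictions. R1 was 30.8 kb from the nearest globin TSS and R4 was 7.44 kb from it, with the Nprl3 promoter as nearest neighbour of R4. Counts of peaks per globin gene by these names therefore leave out the enhancer peaks. HOMER named a globin gene for 6 peaks, 3 for Hbq1a, 2 for Hbq1b and 1 for Hba-a1, and for none in the case of Hba-x and Hba-a2.

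At the start sites, 4 of the 8 genes had a peak centred within 500 bp of the RefSeq Select TSS. Over the genome, 58.9% of 20963 protein-coding Select TSSs had one. The theta-globin genes Hbq1b and Hbq1a, whose role is not established, had a peak centred 10 and 7 bp from their TSS (P20 and P23). Nprl3 had P17 at 58 bp, and Mpg, which encodes a DNA glycosylase of base excision repair, had P9 at 11 bp. The adult genes had none. The nearest centre to the Hba-a1 TSS was 1873 bp away (P19), and the nearest to the Hba-a2 TSS was 1965 bp away (P22), each downstream of the gene. The nearest centre to the embryonic Hba-x was 7440 bp away (P18). Rhbdf1, which encodes a catalytically inactive rhomboid protein, had its nearest centre at 711 bp (P7) and another at 849 bp inside its first intron (P6). With a limit of 1000 bp in place of 500 bp it joined the genes with a peak, giving 5 of 8. With the start sites of GENCODE, chosen as an alternative after seeing the data, the nearest centres to Hba-x, Hba-a1 and Hba-a2 were 7240, 2034 and 1968 bp away.

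In the beta-globin cluster, the adult genes Hbb-bt and Hbb-bs had a peak centred 77 and 59 bp from their TSS, whereas Hbb-bh2, Hbb-bh1 and the embryonic Hbb-y had none within 6083 bp. Thus 2 of 5 beta-globin genes had a promoter peak. The adult genes thus had a promoter peak in the beta-globin cluster and not in the alpha-globin locus, a difference that was not tested.

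**Figure D3:**
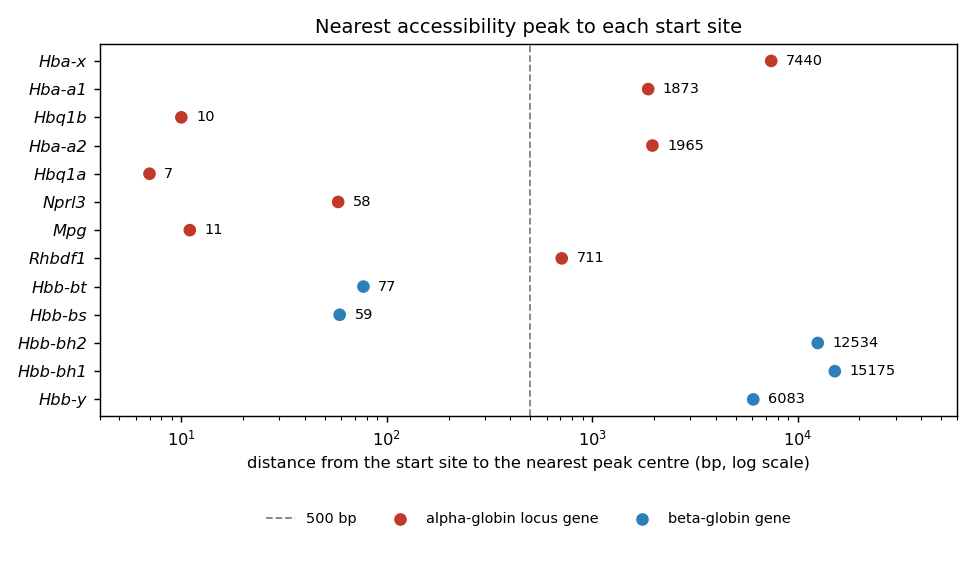
Distance in bp, on a log scale, from the TSS of each alpha-globin locus gene (red) and beta-globin gene (blue) to the nearest peak centre. The dashed line marks 500 bp. Hba-a1, Hba-a2 and Hba-x lie to the right of it at 1873, 1965 and 7440 bp, while Hbb-bt and Hbb-bs lie to the left at 77 and 59 bp.

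The adult alpha-globin promoters are nearly the same sequence, and reads that map to several places were left out when the authors made the peaks. The 250 bases before the Hba-a1 TSS, at chr11:32283422-32283671, are shown with their only motif match in capitals. They aligned over 247 bases to the 250 bases before the Hba-a2 TSS, at chr11:32296242-32296491, with 0 mismatches.
Hba-a1: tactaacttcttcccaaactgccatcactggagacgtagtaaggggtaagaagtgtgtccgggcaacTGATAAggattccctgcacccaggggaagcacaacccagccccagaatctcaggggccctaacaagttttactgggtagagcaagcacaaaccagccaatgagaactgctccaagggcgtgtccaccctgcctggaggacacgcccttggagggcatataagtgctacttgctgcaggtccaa
A GATA match, AGATAA or TGATAA, was present in the promoters of Hba-x, Hba-a1 and Hba-a2, 3 of the 7 member promoters in the RefSeq table, where 17% of 27025 promoters of this length held one. The matches of Hba-a1 and Hba-a2 lie in copies of the same sequence and are not separate cases. The NF-E2 core was in 0 of the 7, against 6.87% of promoters, and the KLF motif was in 3 of the 7, Hba-x, Nprl3 and Mpg, against 45.6%.

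The promoters of the theta-globin genes, which had peaks, were less alike. Over the same length they differed at 11 bases, shown in capitals, and were 95.6% identical. Hbq1b is shown at chr11:32286714-32286963 and Hbq1a at chr11:32299819-32300068, both on the plus strand, on which the globin genes run.
Hbq1b: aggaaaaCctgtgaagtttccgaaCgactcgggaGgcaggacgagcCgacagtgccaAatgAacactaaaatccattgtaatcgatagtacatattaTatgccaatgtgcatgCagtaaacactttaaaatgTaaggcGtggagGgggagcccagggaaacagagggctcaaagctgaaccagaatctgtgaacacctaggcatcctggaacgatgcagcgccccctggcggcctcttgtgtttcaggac
Hbq1a: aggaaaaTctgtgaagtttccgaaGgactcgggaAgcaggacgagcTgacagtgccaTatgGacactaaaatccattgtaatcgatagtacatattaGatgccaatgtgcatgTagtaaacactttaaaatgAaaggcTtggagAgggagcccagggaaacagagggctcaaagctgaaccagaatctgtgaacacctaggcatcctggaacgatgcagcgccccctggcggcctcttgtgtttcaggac
The peaks themselves, P20 and P23, were 96.3% identical over 482 aligned bases. The second pair of peaks, P19 and P22, lay 1419 bp upstream of Hbq1b and 1612 bp upstream of Hbq1a, between each adult gene and the theta-globin gene that follows it. These were 84.7% identical over 386 aligned bases, and HOMER annotated both to L1 LINE repeats. None of P19, P20, P22 and P23 held a GATA motif.

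How much of the sequence around each promoter is unique at read length was measured on the reference sequence. Windows of 100 bases, the length of each mate, were counted as unique when they occurred once in the 21 chromosomes on either strand. Each mate was taken alone, so a mate in repeated sequence that its partner could place was not counted. Within 500 bp of the TSS, 16.5% of windows were unique for Hba-a1 and 14.9% for Hba-a2. A stretch of 1022 bp around each of the adult promoters, at chr11:32283321-32284342 and chr11:32296138-32297159, held no unique window at all. For Hbq1b and Hbq1a, which had peaks, the share was 85.1% each, and for Hbb-bt and Hbb-bs, which also had peaks, it was 74.7% and 74.3%. Around Hba-x, Nprl3, Mpg and Rhbdf1 every window was unique, so Hba-x lacked a peak in unique sequence. The part of repeated sequence in the missing peaks of Hba-a1 and Hba-a2 was not tested, since the list gives no reads. By 100-base windows, 22 of the 24 peaks lay wholly in unique sequence and P20 and P23 had 98.5% unique windows. By 50-base windows the share was 79.8% for P21, 80.7% for each of P20 and P23, 98% for P16 and 99.6% for P22. Reads that map to several places had been left out before the peaks were made, so the high shares of the peaks are not a finding about the locus.

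**Figure D4:**
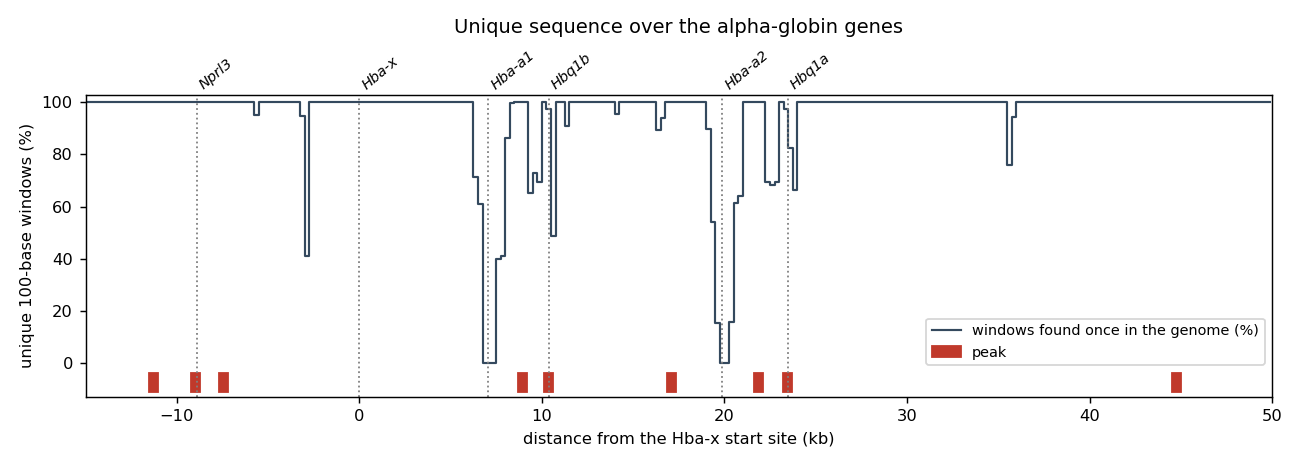
Share of 100-base windows that occur once in the genome, in bins of 250 bp, by distance in kb from the Hba-x TSS. Red boxes are peaks and dotted lines are TSSs. The share falls to 0% at Hba-a1 and Hba-a2 and is 100% within 500 bp of the Hba-x and Nprl3 TSSs, with a dip to 41.2% between those genes, 2.88 kb upstream of Hba-x.

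Between the duplicated units lay P21, with a TGATAA 50 bp from its centre. HOMER gave it to Hba-a1, at 2791 bp upstream, but placed that transcript at the position where RefSeq has Hba-a2, and by RefSeq the peak lay 2794 bp upstream of Hba-a2. The last peak, P24, was 21.3 kb downstream of the Hbq1a TSS and is the peak found by gene name only.

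Of the 10 peaks upstream of the enhancers, P1 to P10, P4 and P9 were centred within 500 bp of a RefSeq Select TSS, and P1, P2, P5 and P10 lay 37910, 3979, 5223 and 12132 bp from the nearest one. P4 was centred 75 bp upstream of Snrnp25, which encodes a protein of the minor spliceosome, and P2 and P3 lay in intron 1 of Il9r, the receptor of interleukin 9. P8 was 1525 bp upstream of Mpg. An exact match to the consensus of CTCF, a factor known for bounding chromatin domains, was found in 2 of the 24 peaks, where 7.68% of the list had one. With 1 mismatch allowed it was 8 of the 24, against 28.9% of the list. Among these were P20 and P23, since the Hbq1b and Hbq1a promoters shown above each hold ccccctggcgg, 1 base off the consensus. The first exact match was 4 bp from the centre of P1, 114 kb upstream of Hba-x and far from the enhancers. The second was 26 bp from the centre of P10 on the constitutive site HS-38, between the enhancers and the Mpg gene, and is shown in capitals in the central 100 bases of that peak, chr11:32238587-32238686, plus strand.
HS-38: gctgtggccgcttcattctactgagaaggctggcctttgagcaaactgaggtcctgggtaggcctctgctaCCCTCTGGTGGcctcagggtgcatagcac

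The locus held more peaks than most stretches of the genome of its length. Of 16413 windows of 160 kb that tile the genome, 1.74% held at least the 23 peak centres of the alpha-globin window, with a median of 3 and a maximum of 38. Among windows that held the TSS of a protein-coding gene, the median was 7 and the share was 3.15%. These windows were not matched to the alpha-globin window in number of genes, and that window was chosen for its known genes and enhancers. The peaks of the alpha-globin locus had a median GC content of 52.0%, against 48.9% over the list. By RefSeq Select transcripts, 11 of the 24 were centred in introns, 10 were intergenic and 3 in exons.

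**Figure D5:**
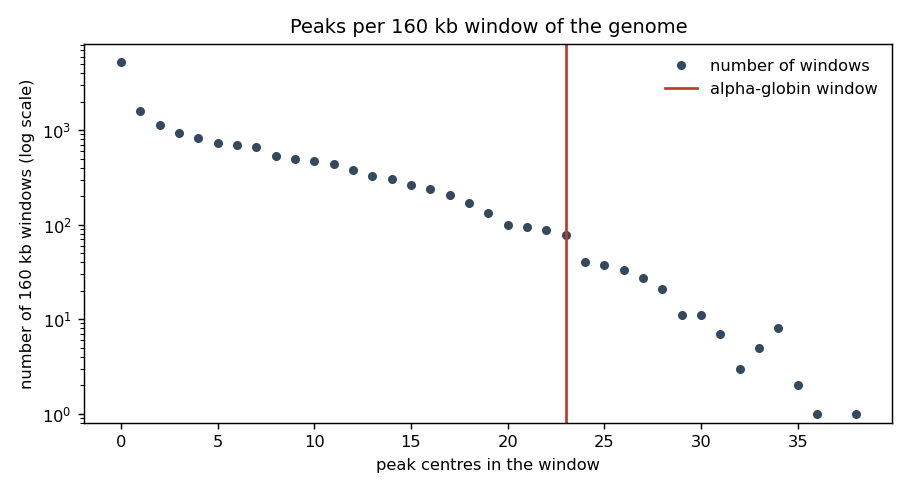
Number of 160 kb windows of the genome, on a log scale, by the number of peak centres they hold. The red line marks the alpha-globin window with 23 centres, a count reached or passed by 1.74% of windows.

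Genes that act with the locus were also looked at through their start sites. Of 11 regulators and partners of alpha-globin, 10 had a peak centred within 500 bp of the TSS, beside the 58.9% of all TSSs. These were the factor genes Gata1, Klf1, Nfe2, Tcf3, Zbtb7a and Bcl11a, the cofactor genes Ldb1, Lmo2 and Zfpm1, and the chromatin remodeler Atrx. Tal1, which encodes the partner of GATA1 in the composite motif, had its nearest centre 1062 bp upstream. The gene for the alpha-globin chaperone, Ahsp, was not analysed here. The other subunits of GATOR1, Nprl2 and Depdc5, had a promoter peak in 2 of 2 cases, as Nprl3 did.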

How the data were processed

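ATAC-seq libraries of 12 samples, 2 replicates of 6 cell types, had been aligned to mm10 by the authors, who ran the ENCODE ATAC-seq pipeline and discarded multimapping reads. The optimal peak-lists were concatenated, filtered with chromVAR to non-overlapping peaks that the paper calls the most significant, and annotated with HOMER 4.10.2. The single deposited table is pooled over all samples. The peak score that the authors deposited is 0 in all 84243 rows and was not used. Peak positions, and distances from a TSS, were used in bp as deposited. No column gives reads, so depth per sample is unknown.

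Peaks were taken by overlap of at least 1 bp with the window or by gene name. TSSs, introns, hypersensitive sites, enhancers and sequence came from RefSeq release 108.20200622 of GRCm38.p6. A promoter peak has its centre within 500 bp of a RefSeq Select TSS. Motifs were searched as exact strings on both strands of the whole peak. The genome was tiled in 160 kb windows with less than 10% gap bases. Copies were aligned globally with free end gaps. Searches were tested on simulated data with planted motifs and a planted duplicate. Genes named are the 8 genes of the locus, those with a TSS in the window, 5 beta-globin genes, and lists of regulators and of GATOR1 subunits. The members and lists were chosen with earlier results of these data known, and the RefSeq sites and enhancers were added after the peaks had been seen. Alternatives concerned the promoter limit and annotation, the window, the tiles, the motif search and the window length for unique sequence. Software was Python 3.11.15 with Biopython 1.88, pandas 2.3.3, scipy 1.17.1, numpy 2.4.6 and matplotlib 3.10.9.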

Additional observations from a re-analysis of the deposited data

How the results depend on the processing

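No paired analysis was possible because the list has no values per sample, and leaving out a replicate, a replicate block and a stricter score could not be run for the same reason and because the score is 0 throughout. Of 34 alternative values over 18 results, 23 stayed within the tolerance used, which was 1.5 times for a count and the 95% exact binomial interval of the reported value for a share. This tolerance is wider for counts. For the unique shares, the windows overlap one another and come from a fixed reference sequence. The interval served there only as a cut-off and measures no spread. Within it, the search of the central 200 bp lowered the peaks with a GATA motif from 10 to 7. It lowered those with an NF-E2 core from 3 to 2 and those with a KLF motif from 6 to 4. Over the list, the shares fell as well, to 17.8% for GATA, 7.94% for NF-E2 and 30.1% for KLF. AGATAA alone also gave 7 peaks, where 24.1% of the list had it. The count of genes with a promoter peak was 4 under limits of 100 bp, overlap with the TSS base, other RefSeq transcripts, the HOMER distance and GENCODE transcripts, the last chosen after seeing the data, and 5 at 1000 bp, where Rhbdf1 entered. A peak within 500 bp of the annotated site, also chosen after seeing the data, gave 8 hypersensitive sites. The values that moved were as follows. Widening the window by 50 kb on each side gave 35 peaks. Tiles with a protein-coding TSS gave 3.15%. Allowing 7 to 9 bases between the CTG and the GATA motif gave 2 peaks with a TAL1:GATA composite, where 5.11% of the list had one. Allowing 1 mismatch gave 8 peaks with a CTCF consensus, where 28.9% of the list had one. With 50-base windows the unique share was 10.7% for Hba-a1, 8.82% for Hba-a2, 67.8% for Hbq1b and 66.7% for Hbq1a. With 200-base windows it was 18.2% for Hba-a2 and 96.5% for each of Hbq1b and Hbq1a. The list records only regions that were open in 1 or more cell types and that passed the authors' filter. An absent peak is therefore not shown to be closed chromatin, nor to have been uncalled in every cell type. Neither the level of accessibility nor the cell type can be given from the list.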
